A study of Mus musculus with 8 samples.

Results

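The 6 genes described here are Nfil3, Dbp, Tef, Hlf, Usp2 and Wee1, the repressor and the activators of the D-box, a short DNA element of the circadian clock, with a pair of rhythmic output genes. They were chosen by name, from earlier results of the same arrays, out of 19310 genes with a row that carries a single gene symbol. Each of the 6 had exactly 1 such row. The tissue was epididymal white adipose tissue, the visceral fat depot beside the epididymis, and its RNA was measured on 8 arrays from male C57BL/6 mice aged 12 to 15 weeks. In 4 samples the genotype was WT and in 4 it was Rev-erb alpha KO, a knockout of the nuclear receptor encoded by Nr1d1. The labels do not describe the allele, and do not say whether each replicate is a separate mouse, so the spread that p-values rest on may be technical. All mice were fed a standard diet in a cycle of 12 h of light and 12 h of dark, and tissue was taken at Zeitgeber time 10, that is, 10 h after lights on, which the labels give as the daily high of the receptor's protein in WT mice.

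Clock output genes are read out through a few DNA elements. BMAL1 and CLOCK act on E-boxes, Rev-erb receptors repress and ROR receptors activate through a shared element, and D-boxes are bound by basic leucine zipper proteins. DBP, TEF and HLF, the PAR bZIP factors (named for a region rich in proline and acidic amino acids), activate D-box genes, and NFIL3, also called E4BP4, occupies the same element and represses. Nfil3 is a known target of Rev-erb repression, while Dbp, Tef and Hlf are known as outputs of BMAL1 and CLOCK. In liver and kidney the PAR bZIP factors are known for driving genes of detoxification and lipid handling.

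Promoter windows from RefSeq (GRCm38.p6), each holding 250 bases before an annotated transcript start and 50 from it, were given for 5 of the 6 genes, Tef having 2 of the 6 windows. Wee1 has no entry. Each window was searched on both strands for a D-box (TTANGTAA), an E-box (CACGTG), the half-site of Rev-erb and ROR receptors (AGGTCA) and its longer form TAGGTCA, which holds the shorter. The windows of the 3 genes whose RNA changed are shown 5′ to 3′ on the gene's strand, with motif matches in capitals.
Nfil3, chr13:52980990-52981289, minus strand: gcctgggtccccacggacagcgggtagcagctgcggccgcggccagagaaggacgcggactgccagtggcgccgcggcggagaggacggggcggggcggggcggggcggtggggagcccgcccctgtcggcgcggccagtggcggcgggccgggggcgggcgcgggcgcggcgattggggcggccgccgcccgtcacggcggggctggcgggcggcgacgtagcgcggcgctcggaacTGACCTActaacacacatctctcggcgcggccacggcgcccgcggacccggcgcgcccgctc
Hlf, chr11:90390868-90391167, minus strand: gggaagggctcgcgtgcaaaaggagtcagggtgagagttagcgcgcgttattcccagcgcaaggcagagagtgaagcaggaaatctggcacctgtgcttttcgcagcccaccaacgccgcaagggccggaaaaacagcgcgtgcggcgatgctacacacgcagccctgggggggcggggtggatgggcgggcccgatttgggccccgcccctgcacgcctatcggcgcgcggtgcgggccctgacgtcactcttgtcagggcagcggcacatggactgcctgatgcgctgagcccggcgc
Usp2, chr9:44084670-44084969, plus strand: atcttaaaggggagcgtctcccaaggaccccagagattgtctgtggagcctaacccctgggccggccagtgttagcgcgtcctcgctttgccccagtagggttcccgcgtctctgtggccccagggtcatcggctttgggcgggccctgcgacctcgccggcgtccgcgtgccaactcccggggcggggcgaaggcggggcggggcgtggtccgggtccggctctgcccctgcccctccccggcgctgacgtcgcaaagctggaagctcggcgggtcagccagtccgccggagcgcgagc

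The Nfil3 window held 1 match, TGACCTA, which is TAGGTCA read on the other strand, from 12 to 6 bases before the transcript start. The longer half-site is found in 2.61% of the 32851 windows of the table and the shorter in 16.3%. G and C made up 81.7% of the Nfil3 window, against a median of 52.7% over all windows. The windows of Hlf, Usp2 and Dbp held none of the 4 motifs. The windows of Usp2 and Nfil3 lie at annotated starts inside the gene. On the gene's strand Usp2 begins at chr9:44067021 and Nfil3 at chr13:52982878, and the sequence around these outermost starts was not searched. Both Tef windows held an E-box, found in 7.15% of all windows, and the stretches around them are shown because Tef is the member with such a match at each annotated start.
Tef, chr15:81802526-81802571, plus strand: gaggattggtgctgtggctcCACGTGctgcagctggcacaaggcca
Tef, chr15:81811256-81811301, plus strand: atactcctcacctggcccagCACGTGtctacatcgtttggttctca

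No D-box as spelled here lay in any of the 6 windows, and 2.32% of all windows held one. These matches describe letters in short windows and nothing about which proteins bind there.

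Across the 20748 rows tested, limma called 7.4% changed at a Benjamini-Hochberg adjusted p under 0.05, 3.81% higher and 3.59% lower in the knockout-labelled arrays. Of these 1536 calls 51.5% were higher, and with median centring of each array 60.7% of 1507. Array medians lay between 5.90 and 5.95 log2, and the median of all fold changes was −0.0064 log2. The row of the targeted gene, Nr1d1, ranged from 9.11 to 9.83 log2 in wild type and from 8.80 to 9.56 in the knockout-labelled arrays, and these ranges overlap. Which part of the transcript this row reads is not given in the sources used here, so it checks nothing about the genotype, and the arrays are called knockout-labelled. Markers of mature adipocytes averaged 11.7 to 11.9 log2 on the wild-type arrays and 11.8 on each knockout-labelled array, and the 5 measured markers of epididymal epithelium averaged 4.18 to 4.26 and 4.21 to 4.24.

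Nfil3 and Hlf rose in the knockout-labelled tissue, Usp2 fell, and Dbp, Tef and Wee1 did not pass the test. Nfil3, whose product represses through the D-box, was 2.79-fold higher, and of the 3 activators that bind the same element Hlf was 1.42-fold higher. The deubiquitinase gene Usp2 was 1.38-fold lower. So 3 of the 6 members were called, against 7.4% of all rows. The share is a description, because the members were picked with results known. All tissue was taken at the same Zeitgeber time. A change in level thus cannot be told apart from a change in the timing or size of a daily rhythm. Whether genes that did not pass, such as Dbp, differ at other times of day was not tested.

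**Figure D1:**
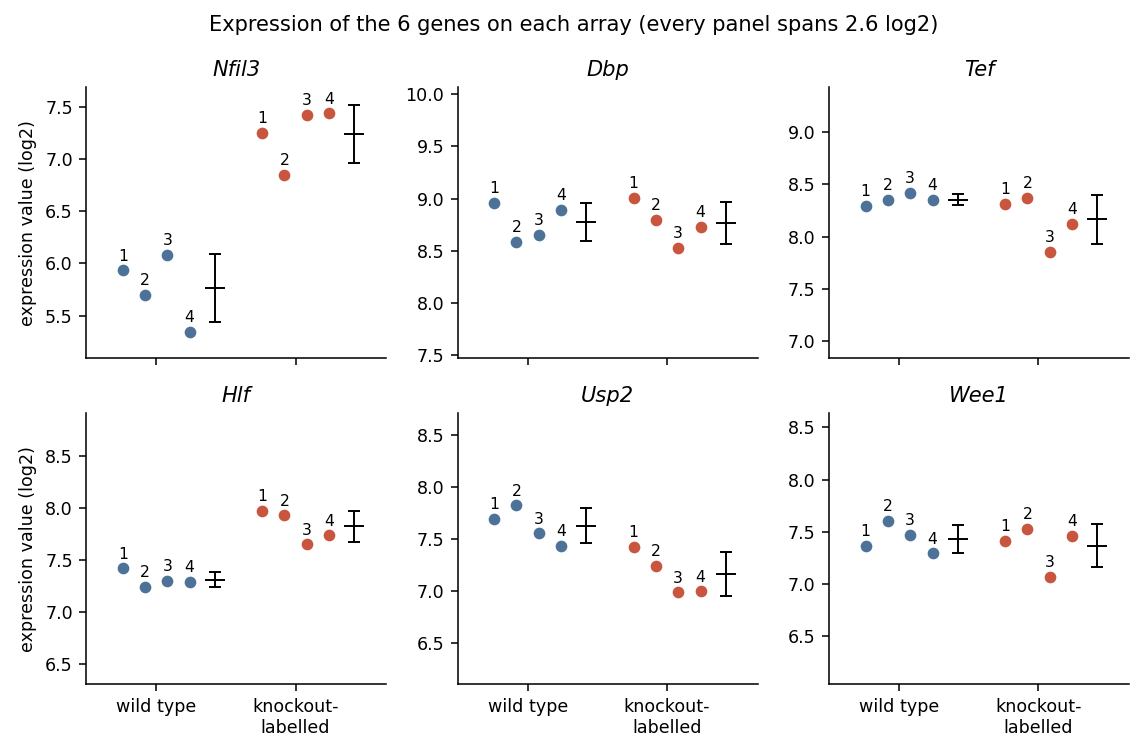
Log2 expression value of each of the 6 genes on each array, with numbered points for the 4 wild-type (blue) and 4 knockout-labelled (red) arrays and the mean ± SD beside them in black; every panel spans the same number of log2 units. The knockout-labelled points lie above all wild-type points for Nfil3 and Hlf and below them for Usp2. The groups overlap for Dbp, Tef and Wee1, each with some knockout-labelled points outside the wild-type range.

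Nfil3, the D-box repressor (row 10409278), read 5.93, 5.70, 6.08 and 5.34 log2 on wild-type arrays 1 to 4. In the knockout-labelled arrays 1 to 4 it read 7.25, 6.85, 7.43 and 7.44. All knockout-labelled arrays were high and all wild-type arrays low, with 0.77 log2 between the highest wild-type and the lowest knockout-labelled array. The difference of means was 1.48 log2 (SE 0.17, 95% interval 1.11 to 1.85, limma adjusted p = 0.00069), from 5.76 ± 0.32 to 7.24 ± 0.27 (SD, n = 4 each). On the linear scale the interval ran from 2.16-fold to 3.60-fold. Nfil3 was 1 of 17 rows of the 20748 that had an increase this large.

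The spread of Nfil3 within wild type was the widest of the 6 genes in that group, and wild-type array 4 was its low end. Nr1d1 read 9.47, 9.11, 9.18 and 9.83 log2 on wild-type arrays 1 to 4, and Arntl, the BMAL1 gene and another Rev-erb target, read 5.12, 5.19, 4.96 and 4.80. Array 4 thus had the highest Nr1d1 and the lowest Nfil3 and Arntl, but the other arrays kept no common order: Nfil3 was highest on array 3, where Arntl was second lowest, and array 1 was second highest in both Nr1d1 and Nfil3. Among knockout-labelled arrays Nfil3 and Arntl were lowest on array 2 (Arntl 6.65, against 6.94 to 6.95 on the others), and Nr1d1 was highest on array 1 (9.56). Arntl rose by 1.85 log2 (SE 0.098, limma adjusted p = 3.20e-05).

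Dbp, the D-box activator with the best-known daily rhythm, read 8.96, 8.59, 8.65 and 8.89 log2 in wild type. It read 9.01, 8.79, 8.53 and 8.73 in the knockout-labelled arrays. The highest and the lowest of the 8 values were both knockout-labelled, so the groups overlapped throughout. The means were 8.77 ± 0.18 and 8.76 ± 0.20 (SD, n = 4 each), a difference of −0.01 log2 (SE 0.11, limma adjusted p = 0.974). The 95% interval of the ratio of knockout-labelled to wild type was 0.84 to 1.18. The sign depended on the arrays used and on scaling, as it turned positive with median centring (0.00917). Values without single arrays ran from −0.091 to 0.070.

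Tef, the activator gene that encodes thyrotroph embryonic factor, read 8.29, 8.36, 8.42 and 8.35 log2 in wild type, a narrow range. It read 8.31, 8.37, 7.85 and 8.12 in the knockout-labelled arrays, where arrays 1 and 2 lay within the wild-type range and arrays 3 and 4 below it. The log2 fold change was −0.19 (SE 0.10, 95% interval −0.41 to 0.03, limma adjusted p = 0.314), from 8.35 ± 0.05 to 8.16 ± 0.23 (SD, n = 4 each). Without knockout-labelled arrays 1 and 2 it was −0.37 (adjusted p = 0.0347), and without arrays 3 and 4 it was −0.01 (adjusted p = 0.949).

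Hlf, the activator gene that encodes hepatic leukemia factor, read 7.42, 7.24, 7.30 and 7.29 log2 in wild type. It read 7.97, 7.93, 7.65 and 7.74 in the knockout-labelled arrays. All of these were above every wild-type value, by at least 0.23 log2. The log2 fold change was 0.51 (SE 0.079, 95% interval 0.33 to 0.68, limma adjusted p = 0.00411), from 7.31 ± 0.08 to 7.82 ± 0.15 (SD, n = 4 each). An increase at least this large was found in 298 of the 20748 rows. Hlf lies on chromosome 11, which also carries the targeted gene Nr1d1. Whether DNA linked to the knockout allele had a part in this difference was not tested. Knockout-labelled arrays 1 and 2 carried the larger part of it: the log2 fold change was 0.64 without arrays 3 and 4 and 0.38 without arrays 1 and 2, and was called in both fits (adjusted p = 0.00292 and 0.0154).

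Usp2, a deubiquitinase gene with a daily rhythm in many tissues, read 7.69, 7.82, 7.56 and 7.44 log2 in wild type. It read 7.43, 7.24, 6.99 and 7.00 in the knockout-labelled arrays. The groups did not overlap, but only 0.0094 log2 lay between wild-type array 4 and knockout-labelled array 1. The log2 fold change was −0.46 (SE 0.11, 95% interval −0.71 to −0.22, limma adjusted p = 0.0321), from 7.63 ± 0.17 to 7.17 ± 0.21 (SD, n = 4 each). A decrease at least this large was found in 258 rows. Leaving out any of wild-type arrays 1, 2 and 3 and knockout-labelled arrays 3 and 4 took the call away (adjusted p 0.0631 to 0.0942). With the latter pair both left out the value was −0.29 (adjusted p = 0.225).

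Wee1, the kinase gene whose product holds CDK1 inactive before mitosis, read 7.36, 7.60, 7.47 and 7.29 log2 in wild type. It read 7.41, 7.52, 7.07 and 7.46 in the knockout-labelled arrays. Knockout-labelled array 3 was the low end of all 8 arrays, and the other values mixed. The difference of means was −0.07 log2 (SE 0.10, limma adjusted p = 0.776), from 7.43 ± 0.14 to 7.36 ± 0.20 (SD, n = 4 each), with a 95% interval of the ratio of 0.82 to 1.12. Without array 3 it was 0.0336.

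**Figure D2:**
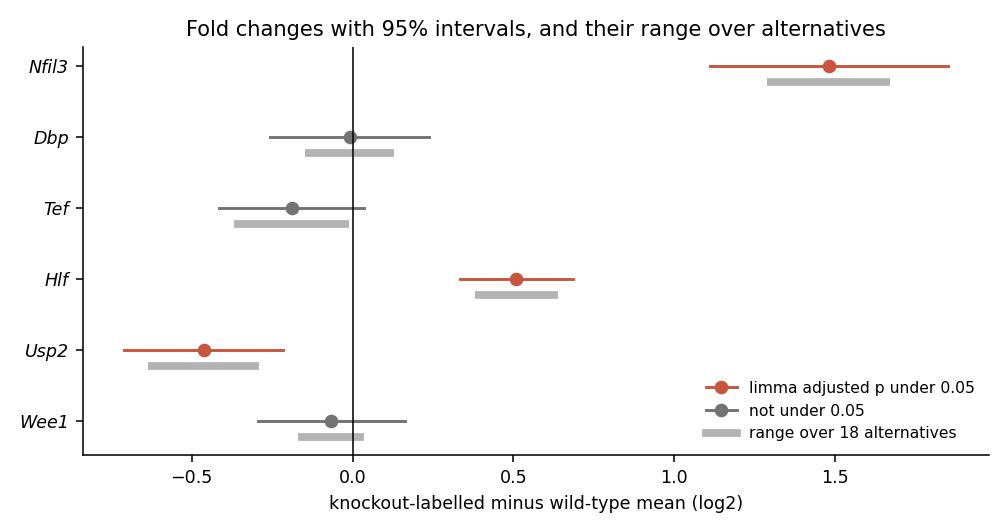
Log2 fold change (knockout-labelled minus wild-type mean) of each gene as a point with its 95% interval as a line, red where the limma adjusted p was under 0.05, above a grey bar that spans its values over the 18 alternatives tried. The bars of Nfil3 (1.29 to 1.67), Hlf (0.38 to 0.64) and Usp2 (−0.63 to −0.29) stay on one side of 0, as does that of Tef (−0.37 to −0.01), and those of Dbp and Wee1 cross it.

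In 3 of the 6 genes the groups did not overlap, above wild type for Nfil3 and Hlf and below it for Usp2. Over all rows tested, 7.18% had all knockout-labelled arrays above all wild-type arrays and 8.16% had them all below.

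Repressor and activators were then set side by side within each array, each gene relative to its own wild-type mean. Nfil3 stood 1.49, 1.09, 1.67 and 1.68 log2 above its wild-type mean in knockout-labelled arrays 1 to 4. Hlf stood 0.66, 0.62, 0.34 and 0.42 above its own. The rise of Nfil3 exceeded that of Hlf in each of these arrays, by 0.83, 0.47, 1.33 and 1.25 log2, and the wild-type arrays lay between −0.40 and 0.33 on this difference. Set against Dbp, Nfil3 was ahead by 1.07 to 1.91 log2, and set against Tef by 1.07 to 2.17. These differences are given without a test, because the genes were chosen with results known. The groups already stood apart for Nfil3 alone.

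The 3 activator genes did not move alike. Hlf relative to Dbp was 0.42 to 0.60 log2 in the knockout-labelled arrays and −0.14 to 0.11 in wild type, and Hlf relative to Tef was 0.60 to 0.84 against −0.08 to 0.17. On both differences the groups stood apart, as they already did for Hlf alone. How many other gene pairs stand apart was not tabulated. Dbp relative to Tef was 0.01 to 0.28 in the knockout-labelled arrays and −0.19 to 0.25 in wild type, and there the groups overlapped. Hlf relative to Usp2 was even across the knockout-labelled arrays, at 0.86, 1.00, 0.98 and 1.05 log2.

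**Figure D3:**
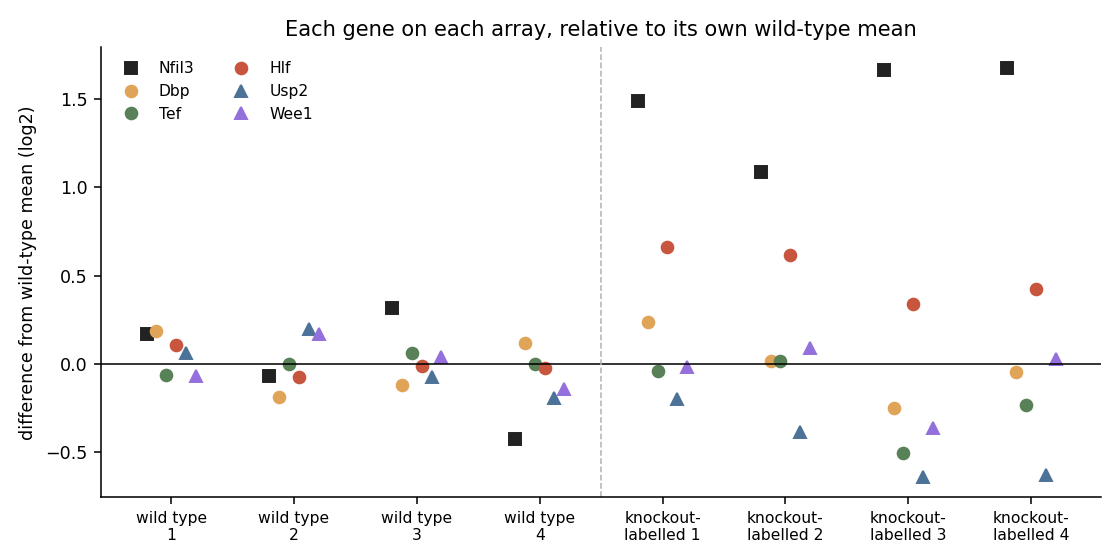
Each gene on each array as its difference in log2 from the gene's own wild-type mean (0 line); squares are the repressor Nfil3, circles the PAR bZIP genes and triangles Usp2 and Wee1, with wild-type arrays left of the dashed line and knockout-labelled arrays right of it. Nfil3 is the uppermost point on all knockout-labelled arrays, Hlf is next, and Usp2 is the lowest point on each of them.

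Several of the genes ordered the knockout-labelled arrays alike. Dbp, Tef, Hlf and Usp2 all read higher on arrays 1 and 2 than on arrays 3 and 4, and Nfil3 read lower on arrays 1 and 2. Over all rows tested 20.1% had the former order, 25.2% the latter and the rest neither, and other pairings of these arrays were not tabulated. Nr1d1 followed the order of the 4 genes, at 9.56 and 9.28 log2 on arrays 1 and 2 and 8.90 and 8.80 on arrays 3 and 4. Wee1 followed neither order, as array 3 alone was low. What separates these arrays was not tested.

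The clock genes of the D-box list, which this element is known to serve, gave 1 call among 8 measured, near the share of 7.4% called over all rows. Per3, a period gene, fell, and 7 did not pass, the targeted gene Nr1d1 among them. Per3 read 8.68 to 8.86 log2 in wild type and 8.44, 8.46, 7.94 and 8.28 in the knockout-labelled arrays, with no overlap. The difference was −0.49 log2 (SE 0.11, limma adjusted p = 0.0228). It missed the threshold when wild-type array 3 or 4 was left out, when array 4 or both arrays 3 and 4 of the knockout-labelled group were left out, and with the replicate number as a block (adjusted p 0.0557 to 0.0703). The median of the list was −0.08 log2, against −0.0064 over all rows, and 1 of the 8 genes lay above 0.

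The genes that share the E-box with Dbp, Tef and Hlf gave 1 increase and 1 decrease among 10 measured, where 7.4% of all rows were called in either direction. Cry2, a clock repressor, rose from 7.80 ± 0.11 to 8.28 ± 0.18 log2 (n = 4 each; 0.48, SE 0.090, limma adjusted p = 0.0103), and Per3, which is on this list as well, fell. Like Hlf, Cry2 was higher on knockout-labelled arrays 1 and 2 (8.49 and 8.37) than on 3 and 4 (8.13 on both). The median of the list was −0.10. Of the genes that, like Nfil3, are known to carry an element for Rev-erb and ROR receptors, 5 other genes were measured, Arntl and Clock rose (1.85 and 0.71 log2) and 3 did not pass, with a median of 0.17.

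Known PAR bZIP targets of liver and kidney gave no call among 6 measured, where 7.4% of all rows were called, so the count is near that share. None passed limma after adjustment, 1 had an unadjusted p under 0.05, and the groups overlapped in all of them. The smallest p was that of Alas1, the first enzyme of heme synthesis, at −0.34 log2 (SE 0.13, adjusted p = 0.155). It was called in 1 of its 18 alternatives, without wild-type array 1 (adjusted p = 0.0386). The list's median was 0.04. Cyp7a1, Nr1i3, Fgf21 and Cyp2b10 averaged 3.04, 4.32, 4.69 and 4.75 log2 in wild type, below the array medians (5.90 to 5.95). With no background bound for dim rows, the lack of calls cannot show whether these genes changed. Of the C/EBP genes, bZIP relatives that bind related sites, Cebpa, a driver of fat cell differentiation, fell by 0.37 log2 (SE 0.058, adjusted p = 0.00454), and the other 4 did not pass, with a median of 0.05.

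**Figure D4:**
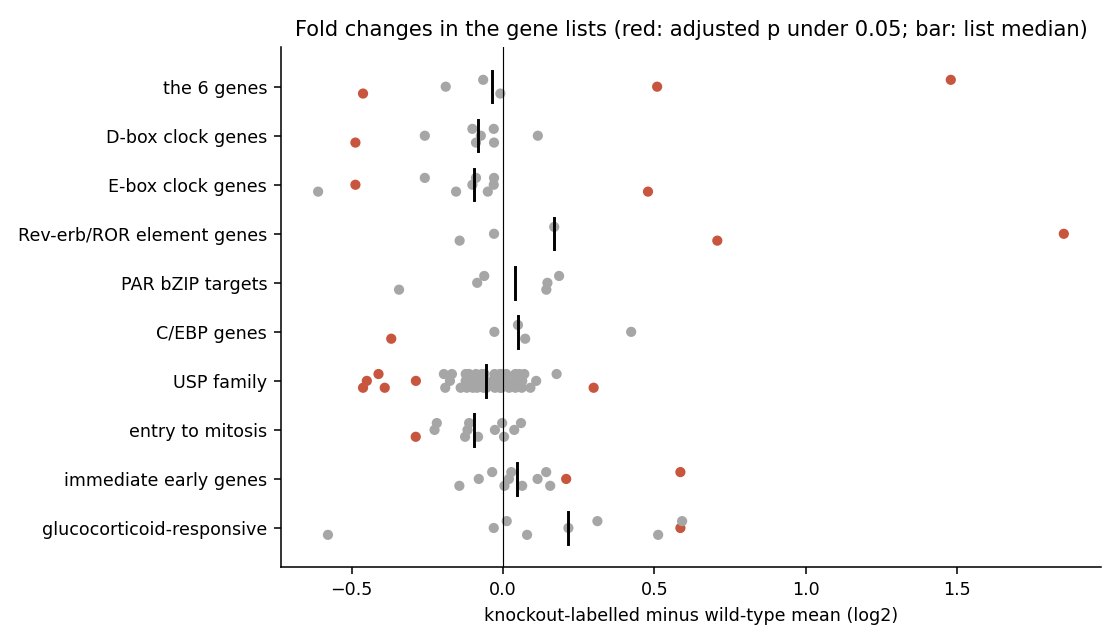
Log2 fold change of each measured gene of 10 lists (a point per gene, its brightest row), red where the limma adjusted p was under 0.05, with a black bar at the list's median; points are spread vertically for legibility, and some genes are on more than 1 list. The 6 genes described here reach from −0.46 (Usp2) to 1.48 (Nfil3), and the list medians lie between −0.10 and 0.22.

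Among genes of Usp2's own family, the ubiquitin-specific proteases, 5 of 49 measured fell and 1 rose, where 3.59% of all rows fell and 3.81% rose. Usp2 had the lowest log2 fold change of the family (−0.46). Usp11 (−0.45, SE 0.049), Usp35 (−0.41, SE 0.11), Usp54 (−0.39, SE 0.093) and Usp33 (−0.29, SE 0.053) also fell, and Usp32 rose (0.30, SE 0.053), with limma adjusted p-values of 0.000582 for Usp11 to 0.0431 for Usp35. The family's median was −0.05. The Usp35 call was lost in 11 of 18 alternatives, that of Usp54 in 6 and that of Usp33 in 1 (adjusted p up to 0.195), and those of Usp11 and Usp32 in none.

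Genes of entry to mitosis, where Wee1 acts, gave 1 call among 12 measured, near the 7.4% of all rows. Cdk2, a kinase gene of the cell cycle, fell by 0.29 log2 (SE 0.070, limma adjusted p = 0.0327), a call lost in 9 of 18 alternatives, with median centring among them. The median of the list was −0.10. Cdk1, the gene of the kinase that the WEE1 protein inhibits, is a measured member and did not pass.

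Nfil3 is also known to respond to hormones and acute stimuli, so lists of such genes were counted beside it. Of 12 immediate early genes, the phosphatase gene Dusp1 (0.59, SE 0.13, limma adjusted p = 0.0232) and Fos (0.21, SE 0.055, adjusted p = 0.0454) rose and 10 did not pass, with a median of 0.05. Of 9 measured glucocorticoid-responsive genes Dusp1 rose and 8 did not pass, with a median of 0.22. Log2 fold changes above 0 were found in 9 of the 12 immediate early genes and 7 of the 9 glucocorticoid-responsive genes. The unadjusted limma p was under 0.05 for 2 and 3 genes of these lists. Over all rows tested 7.4% were called. The Dusp1 call was lost in 5 of 18 alternatives and that of Fos in 12. Their part in the rise of Nfil3 was not tested.

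Lymphocytes, in which Nfil3 has known roles, are among the cells a fat pad holds. None of 10 markers of natural killer and innate lymphoid cells was called by limma (0 with an unadjusted p under 0.05), and their mean level was 4.15 to 4.33 log2 on wild-type arrays and 4.06 to 4.34 on knockout-labelled arrays. None of 5 T cell markers was called (0 with an unadjusted p under 0.05), with mean levels of 4.86 to 5.09 and 4.70 to 5.04. Over all rows tested 7.4% were called. Both lists lay below the array medians (5.90 to 5.95). The natural killer and innate lymphoid list was near the epididymal epithelium markers (4.18 to 4.26 on wild-type arrays). With no background bound for dim rows, the lack of calls cannot show whether these cells changed. In bulk tissue, fewer cells of a type and less RNA per cell cannot be told apart.

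The other marker lists held 4 to 9 measured genes and gave at most 2 calls each, where 7.4% of all rows were called. Of 9 macrophage markers 1 fell (Cd14), while the log2 fold changes of the other 8 lay above 0 without a call (list median 0.10). The mean levels of this list were 7.83 to 8.30 log2 in wild type and 8.12 to 8.39 in the knockout-labelled arrays. Of 6 endothelial markers 2 rose (Cldn5 and Pecam1), with mean levels of 8.23 to 8.50 and 8.53 to 8.67, and of 6 progenitor and fibroblast markers 2 rose (Col1a1 and Pi16), with 8.26 to 8.64 and 8.69 to 8.88. Thus the mean levels of the endothelial and the progenitor and fibroblast lists did not overlap between the groups. Over all single rows tested, 7.18% had all knockout-labelled arrays above all wild-type arrays. Within these lists the genes did not all move alike. Of the endothelial log2 fold changes 4 of 6 lay above 0 (median 0.15), and of the progenitor and fibroblast ones 5 of 6 (median 0.25). Of 9 adipocyte markers 1 rose (Lep), and of 5 mesothelial markers 1 rose (Msln). Lep and Msln did not stand for their lists. Of the adipocyte log2 fold changes 2 of 9 lay above 0 (median −0.08), and of the mesothelial ones 1 of 5 (median −0.19). Of 4 smooth muscle markers 1 rose and 1 fell (Acta2 and Tagln), with 1 of 4 above 0 (median −0.11). Of 5 skeletal muscle markers 1 fell (Actn3), with 2 of 5 above 0 (median −0.02). None of the epididymal markers was called (0 with an unadjusted p under 0.05). These markers were named after their values were seen, and their part in the results for the 6 genes was not tested.

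The genes nearest in pattern were found for each called member by the root mean square difference over the 8 arrays, each gene relative to its wild-type mean, among 17234 genes. For Nfil3 these were Col6a1, a collagen VI chain gene (0.222 log2 apart), Ptchd4 (0.251) and Bmp3, a bone morphogenetic protein gene (0.253), with log2 fold changes of 1.31, 1.22 and 1.27. Their increases were smaller than that of Nfil3, and their wild-type SDs of 0.093, 0.19 and 0.14 log2 were below its 0.32.

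For Hlf the nearest were Baiap2 (0.0629 log2 apart), the salt-inducible kinase gene Sik1 (0.0699) and Rasl11a (0.0739), with log2 fold changes of 0.46, 0.47 and 0.46. All of them shared its order of arrays 1 and 2 above 3 and 4 among the knockout-labelled arrays, with arrays 1 and 2 at 8.21 and 8.01 log2 for Baiap2 and at 7.92 and 7.83 for Sik1, and arrays 3 and 4 at 7.77 and 7.85 and at 7.49 and 7.66. Rasl11a differed least, at 6.80 and 6.79 on arrays 1 and 2 and 6.69 and 6.70 on arrays 3 and 4. For Usp2 the nearest were the chloride channel gene Ano1 (0.0607 log2 apart), Pkd2l2 (0.0711) and Usp54 (0.0843), with log2 fold changes of −0.42, −0.40 and −0.39. Like Usp2, Ano1 and Usp54 lost their calls in 6 of 18 alternatives, and Pkd2l2 did not pass (limma adjusted p = 0.0651).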

How the data were processed

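The authors deposited 1 table of log2 expression values from an Affymetrix array, with a row per probe set and a column per sample. Per the submitters' processing notes, affy was used. Background correction, normalization and filters are not given in the sources used here, and log2 was read from the values (2.09 to 13.4). If arrays were normalized to like distributions, changes are relative to the bulk of the rows. Of 23346 rows, the 20748 with exactly 1 symbol in the platform annotation were tested, and 1183 rows with several symbols and 1415 with none were left out.

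KO was compared with WT, 4 arrays each, with limma 3.58.1 (lmFit and eBayes, R 4.3.3), two-sided, without a filter on dim rows. Benjamini-Hochberg adjustment ran over all rows tested. The fit was tested on simulated data with normal noise of each row's own spread. It recovered 75% of changes of 0.5 log2 and 96% of changes of 1 log2. Of its calls there 6.04% were false. The number of arrays limits the precision. The members, lists and alternatives were chosen with earlier results of these data known. Besides the 6 genes, Nr1d1, Arntl, the 3 nearest patterns of each called member, and from each list the called genes, or else the gene of smallest p, were named. Predicted genes and olfactory and vomeronasal receptors were left out of the nearest patterns. Lists were counted on the brightest row of each gene. Alternatives were quantile normalization, median centring, testing all rows, a filter that removed the dimmest 33.3%, array weights, trend and robust eBayes, a block for the replicate number, single arrays and pairs of KO arrays left out, the mean of a gene's rows, an adjusted p under 0.10 and a 1.5-fold minimum.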

Additional observations from a re-analysis of the deposited data

Results flagged for a closer look

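In 58 groups of 4 arrays, those of the 29 genes named by rule, 2 held an array far from the other 3, and chance alone flags about 1 group in 20. Arntl read 6.646 log2 on knockout-labelled array 2, against 6.94 to 6.95 on the other knockout-labelled arrays. Cdk2 read 7.271 log2 on wild-type array 3, against 7.04 to 7.07 on the other wild-type arrays. None of the 6 D-box genes was among them.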

How the results depend on the processing

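Nfil3 and Hlf kept direction and call in all 18 alternatives (1.29 to 1.67 and 0.38 to 0.64 log2). Of 108 values of the 6 genes under alternatives, 93 kept their side of 0 and of the threshold. Their fold change could not move with all rows tested, the dim filter, trend and robust eBayes, the replicate block or the mean of rows. In those alternatives only the p-value could. With median centring Dbp turned to 0.00917. Without knockout-labelled arrays 3 and 4, Dbp was 0.128, Wee1 0.0371 and Nr1d1 0.0265, and Usp2 lost its call (−0.292). Without knockout-labelled arrays 1 and 2, Tef was called (−0.367). With single arrays left out Dbp ran from −0.0911 to 0.0701, Wee1 from −0.119 to 0.0336 and Usp2 from −0.551 to −0.397. The cause was not tested. The 1536 changed rows became 913 to 1418 with single arrays left out (972 without wild-type array 3, 1004 without wild-type array 4 and 913 without knockout-labelled array 4), 701 without knockout-labelled arrays 3 and 4, 1822 without knockout-labelled arrays 1 and 2, 2552 at an adjusted p under 0.10 and 326 with a 1.5-fold minimum, which left 1 of the 6 genes, Nfil3. With the replicate block 1105 rows and the same 3 members passed. Same-numbered arrays did not deviate together (correlations −0.0674 to 0.134 across rows, and 2 of 8 arrays correlated best with their own number). Such correlations, with 4 arrays per group, cannot settle whether the numbers pair the samples. For the named genes that are no members, alternatives chosen after seeing the data gave 353 like values, 55 lost calls, 5 gained calls and 1 turned sign. Dim rows have no background bound here.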
